A study of Arabidopsis thaliana with 2 samples.

Results

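The nuclear genes for 10 subunits of photosystem II, PSBO1, PSBO2, PSBP1, PSBQ1, PSBQ2, PSBR, PSBS, PSBW, PSBX and PSBY, were followed in clusters of immature, unopened flower buds from Col-0 plants of Arabidopsis thaliana. They were chosen by gene identifier as 10 of the 31280 genes of the deposited table, and all 10 were found. One library held RNA recovered from pooled monosomes and polysomes (ribo-seq, whole ribosome-bound RNA rather than footprints, 9574408 mapped clones) and the other was a single-stranded RNA library (ssRNA-seq), deposited as 33187 hotspots, stretches of 50 to 1533 nt on 1 strand. Each assay had 1 library and no treatment, mutant or time series, so nothing here was checked in a replicate. No p-value is given, and every interval is a 95% interval that covers counting error only. The label of the single-stranded library calls the enzyme used a dsRNase and names RNase ONE, an enzyme known to cut single-stranded RNA. Because of that conflict a hotspot is described here by its place alone, and not as paired or unpaired RNA.

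Photosystem II is the light-driven complex of the thylakoid membrane that takes electrons from water. Its reaction centre is encoded in the chloroplast, while the proteins that shield the manganese cluster on the lumen side, and several small membrane subunits, are encoded in the nucleus and imported behind a transit peptide. In flowers, photosystem II is known from the green sepals and other chlorophyll-bearing tissue.

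All 10 genes shared the same bases at the start of translation. The annotated start codon was followed by GC in 10 of 10 genes, while 22.3% of all 26623 nuclear genes that encode a protein and start with ATG had it. The start sites are shown because every one of the 10 genes has this feature. They run 5′ to 3′ along the spliced mRNA (RefSeq, TAIR10.1), with ATG and the GC after it in capitals, and the coordinates are those of the start codon.
PSBO1 (AT5G66570), plus strand, chr5:26568744-26568746: ctttgtggccATGGCagcctct
PSBO2 (AT3G50820), minus strand, chr3:18892309-18892311: tcttgtcatcATGGCaacttct
PSBP1 (AT1G06680), plus strand, chr1:2047940-2047942: gacagagataATGGCgtacagt
PSBQ1 (AT4G21280), plus strand, chr4:11334446-11334448: gaaaaacaaaATGGCttcgatg
PSBQ2 (AT4G05180), minus strand, chr4:2673168-2673170: taaaaaaaaaATGGCtcaagca
PSBR (AT1G79040), plus strand, chr1:29736085-29736087: gagaaaaataATGGCtgcttca
PSBS (AT1G44575), plus strand, chr1:16871768-16871770: ctcagaaagaATGGCtcaaacc
PSBW (AT2G30570), minus strand, chr2:13020051-13020053: aaatagagaaATGGCtagcttt
PSBX (AT2G06520), minus strand, chr2:2588216-2588218: atcggaagagATGGCttctacc
PSBY (AT1G67740), minus strand, chr1:25394996-25394998: tcatcagacaATGGCagcagct

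GC after the start codon begins an alanine codon, and transit peptides for the chloroplast are known to start often with methionine and alanine. The 10 bases before the start codon shared no run of bases: they were mostly A in PSBQ2 and held no A in PSBO1. The base 3 nt before ATG was A or G in all 10 genes, and its share over all genes was not counted. GC after the start codon was not particular to the photosystem II subunits. It was present in 14 of 14 antenna genes, 11 of 12 nuclear photosystem I genes, 5 of 7 other photosystem II subunits and homologues and 19 of 27 genes for photosystem II assembly and repair (70.4%, 49.8 to 86.2). Nor was it particular to chloroplast proteins: 5 of 5 seed storage markers had it (100%, 47.8 to 100), as did 2 of 5 root markers and 1 of 6 flower bud markers with an ATG start. Among the 799 nuclear genes with a ribosome-bound level inside the range of the 10 genes, 40.1% had it (36.6 to 43.5). It was looked for after the sequences were seen.

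Every one of the 10 mRNAs was abundant on ribosomes. Levels are the deposited RPKM (reads per kb of transcript, scaled to the mapped total, with each read or clone weighted by the authors), which allows genes to be compared per length. All 10 lay above the median nuclear protein-coding gene of those above 0, at 0.246 RPKM, where 50% of genes lie by definition, and all 10 lay in the top decile, above 1.41 RPKM, where 10% lie. Their median was 16.2 RPKM, 65.8-fold over the median gene. Together they held 0.727% of the weighted clones of all nuclear protein-coding genes, while being 0.0375% of those genes. All nuclear protein-coding genes, with 1 isoform each, held 277374 weighted clones, against the 9574408 mapped clones used for scaling. The RPKM values are therefore not scaled to nuclear mRNA alone. In a whole bud cluster, fewer cells of a type and less RNA per cell cannot be told apart.

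The 3 highest levels belonged to genes grouped here as lumen-side, those of the PSBO, PSBP and PSBQ families and PSBR. PSBR, a polypeptide that helps hold the oxygen-evolving proteins to the complex, had 84.3 RPKM (77.5 to 91.4, from 661 clones) and ranked 9 of the 23419 nuclear protein-coding genes above 0. PSBO1, which encodes the main form of the manganese-stabilising protein, had 29.0 RPKM (26.0 to 32.2), and PSBP1, an extrinsic protein that helps retain calcium and chloride, had 24.1 RPKM (21.2 to 27.2). PSBR thus stood 2.91-fold over PSBO1 (2.54 to 3.33), the widest gap between neighbours in the order. The PSBQ genes, which encode another extrinsic protein of the oxygen-evolving complex, were lower, with 15.1 RPKM for PSBQ2 (12.8 to 17.8) and 9.45 RPKM for PSBQ1 (7.51 to 11.7). PSBO2, the second copy of the manganese-stabilising protein, had 12.8 RPKM (10.8 to 15.0). The 6 lumen-side genes had a median of 19.6 RPKM.

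The 4 genes grouped here as membrane subunits had a median of 14.7 RPKM. The grouping was set for this report, and which group has the higher median depends on where PSBR is placed. PSBW, a small subunit that helps join the core to its antenna, had 19.02 RPKM (16.1 to 22.3). PSBS, a sensor of lumen acidity needed for the rapid dissipation of excess light as heat, had 17.2 RPKM (14.7 to 19.9). These levels overlapped within counting error, and both fell inside the range of the lumen-side genes. PSBX, a small subunit of a single membrane span, had 12.3 RPKM (9.66 to 15.4). PSBY, whose precursor is known to be cut into a pair of small membrane proteins, was the lowest of the 10 with 4.04 RPKM (2.92 to 5.46, from 56 clones). PSBQ1, the next above it, was 2.34-fold higher (1.60 to 3.49), and the whole set spanned a 20.8-fold range.

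**Figure D1:**
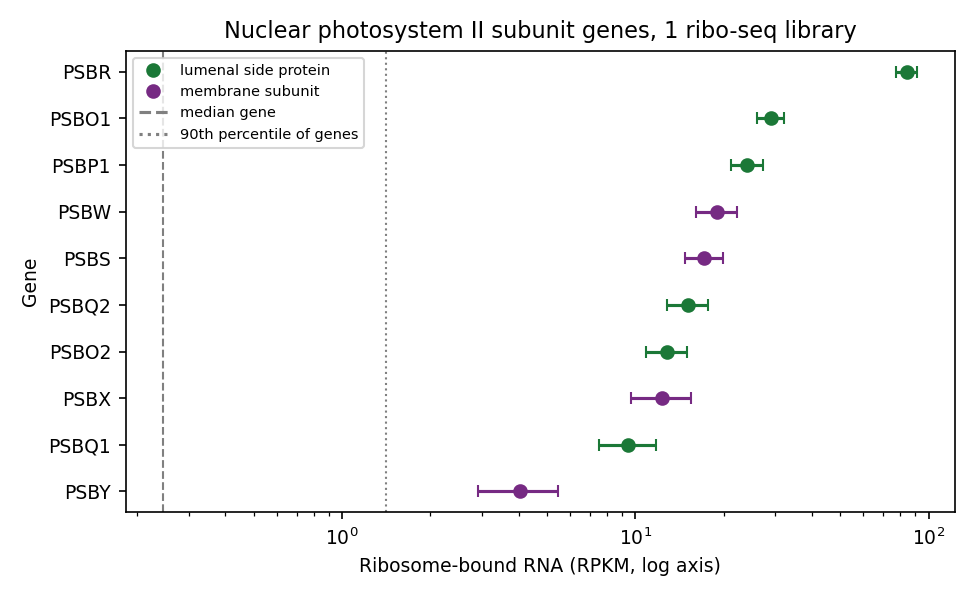
Ribosome-bound RNA of the 10 genes in the ribo-seq library (RPKM, log axis), with points for the deposited level, bars for the 95% Poisson interval on weighted clones, and lines for the median and 90th percentile of nuclear protein-coding genes above 0. PSBR stands apart at 84.3 RPKM and PSBY is lowest at 4.04 RPKM, still right of both lines.

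Between those ends the order was only partly resolved. PSBO1 exceeded PSBP1 1.20-fold (1.02 to 1.42) and PSBP1 exceeded PSBW 1.26-fold (1.03 to 1.55), so these steps were just outside counting error. Those intervals were computed for the main setting only, and the size of both steps depended on the setting. The first was narrower with PSBP1 isoform 2, at 25.2 RPKM. It was wider with unweighted clones, at 37.2 RPKM for PSBO1 and 28.7 RPKM for PSBP1. The second step rests on the weights: with unweighted clones PSBP1 had 28.7 RPKM and PSBW 26.9 RPKM. It was slightly narrower on the annotated mRNA length (20.3 and 16.7 RPKM) and wider with PSBP1 isoform 2. None of the 5 steps from PSBW through PSBS, PSBQ2, PSBO2 and PSBX to PSBQ1 had an interval that left out 1. The ratio of PSBO2 to PSBX was closest to it at 1.04 (0.783 to 1.39).

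The gene copies of each pair differed in level, in favour of copy 1 in PSBO and of copy 2 in PSBQ. PSBO1 stood 2.27-fold over PSBO2 (1.87 to 2.76), which gave it 69.4% of the 41.8 RPKM of both. PSBQ1 stood at 0.624 times PSBQ2 (0.473 to 0.825), or 38.4% of the 24.6 RPKM of both. PSBP1 had nearly all of its family, since its homologue PSBP2 was listed with 2 clones and 0.0886 RPKM, an interval of 0.000451 to 0.662. The coding sequences of PSBP1 and PSBP2 were aligned over 378 bases, while that of PSBP1 has 792. Whether PSBP2 encodes a complete PSBP protein was not tested. The summed PSBP level of 24.2 RPKM and the summed PSBQ level of 24.6 RPKM were close to each other and below that of PSBO.

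The copies of each pair were alike in coding sequence but shared few unbroken runs of 20 bases. The coding sequences of PSBO1 and PSBO2 were identical at 835 of 996 aligned bases (83.8%), and their mRNAs shared 37 runs of 20 bases out of 1489 in PSBO1. PSBQ1 and PSBQ2 were identical at 535 of 669 aligned bases (79.97%) and shared 23 such runs. Of the 20-base runs in the exons of the 10 genes, 0.282% (PSBR) to 3.54% (PSBO2) occurred at another place in the genome. The mean weight per clone was 0.706 (PSBW) to 0.879 (PSBR), with PSBW lowest although 0.435% of its runs occurred elsewhere. How the weights were set was not given in the sources used here.

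Other listed isoforms did not alter these levels much, except for PSBS. PSBS isoform 2 is listed with 1520 nt against 1059 nt for isoform 1, and had 209 clones against 202 for isoform 1. Its level was therefore 12.4 RPKM (10.6 to 14.3), below the 17.2 RPKM of isoform 1. Isoform 2 holds 466 annotated nt that isoform 1 lacks and lacks 177 nt that isoform 1 holds, so the 7 more clones are a net of both. PSBP1 isoform 2 had 25.2 RPKM from 308 clones, and the isoforms of PSBQ1, which are listed at 902 and 905 nt, both had 99 clones, so the table does not tell those isoforms apart.

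Hotspots of the single-stranded library were on 5 of the 10 mRNAs, PSBO1, PSBQ1, PSBR, PSBS and PSBW, each with 1 (50%, exact binomial interval 18.7 to 81.3). A gene was counted where a hotspot on its own strand overlapped its exons by at least 1 base. The share was near the background of 52.3% over all 26632 genes and of 54.9% over the 799 genes inside the same range of RPKM. The 10 mRNAs were short, with 720 to 1508 nt against a median of 1487 nt for all genes. Among the 446 genes inside both the RPKM and the length range, 46.2% had a hotspot. The presence of a hotspot therefore did not set the 10 genes apart. PSBO2, PSBP1, PSBQ2, PSBX and PSBY had none on their own strand. By level, 4 of the 5 genes with the highest RPKM had a hotspot, PSBR, PSBO1, PSBW and PSBS but not PSBP1. Of the 5 with the lowest RPKM, 1 had one, PSBQ1. With 5 genes on each side the tally is a description only.

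The places of these hotspots differed from gene to gene. PSBR and PSBS had theirs at the start of the coding sequence, PSBQ1 in the middle of it, PSBO1 in the 3′ UTR and PSBW at the 5′ end of the mRNA. Of the 295 exonic hotspot bases, 176 were coding (59.7%), 54 were in 5′ UTRs and 65 in a 3′ UTR. The sequences of the hotspots in coding sequence are shown because they are the stretches on which these places rest, 5′ to 3′ on the strand of the hotspot, with the start codon in capitals. Positions are those deposited for TAIR9, and the letters come from RefSeq TAIR10.1, whose nuclear chromosomes are known to carry the TAIR9 sequence.
PSBR, plus strand, chr1:29736078-29736143: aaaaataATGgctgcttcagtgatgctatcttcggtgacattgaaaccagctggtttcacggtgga
PSBS, plus strand, chr1:16871775-16871830: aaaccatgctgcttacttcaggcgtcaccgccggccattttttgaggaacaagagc
PSBQ1, plus strand, chr4:11335097-11335157: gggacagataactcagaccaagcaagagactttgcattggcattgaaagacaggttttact

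The PSBR hotspot covered the start codon. It was 66 nt long, from 7 nt before the start codon to base 59 of the 423 coding bases, in exon 1. Over all genes, 4.23% of the 27811 exonic hotspots covered a base of a start codon. Its deposited score was -3.33, and 71.2% of listed hotspots had a score closer to 0. Neither the formula of the score nor the meaning of a more negative value was found in the labels or headers.

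The PSBS hotspot began just inside the coding sequence. Its 56 nt ran from base 8 to base 63 of the 798 coding bases, in exon 2, with a score of -3.02 that 16.8% of hotspots share. Over all genes, 9.2% of exonic hotspots had a base in the first 100 coding nt, and 2 of the 5 here did. With 5 hotspots, that count carries little weight. In both genes this stretch encodes the start of the precursor protein, the region where transit peptides lie.

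PSBQ1 was the one gene with a pair of hotspots on its own strand. The exonic one spanned bases 283 to 343 of the 675 coding bases, in exon 2, with a score of -2.96. The other was 72 nt long and wholly inside intron 1, at chr4:11334899-11334970, with a score of -3.34. That intron has 369 nt, and the hotspot lay 176 nt from the exon before it and 121 nt from the exon after it. No base of it was in an exon of another annotated isoform. A same-strand hotspot wholly inside an intron occurred in 8.4% of the 21203 genes with an intron, and in 1 of the 8 such genes here.
PSBQ1, intron 1, plus strand: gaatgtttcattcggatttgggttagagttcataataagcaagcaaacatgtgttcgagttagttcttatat

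The remaining exonic hotspots lay in untranslated regions. In PSBO1, 65 nt of the 3′ UTR at chr5:26570330-26570394 were covered, from base 1205 to base 1269 counted from the start codon, past the 999 coding bases. Its score of -1.27 was among the closest to 0 in the list, shared with 12.6% of hotspots. In PSBW the hotspot lay at chr2:13020265-13020338 on the minus strand, with 47 nt on the first 47 bases of the annotated mRNA and 27 nt upstream of it. No other annotated protein-coding gene overlapped it.

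PSBO2 had a hotspot on the strand opposite to its mRNA and none on its own. It covered 58 nt at chr3:18891364-18891421 on the plus strand, antisense to coding bases 583 to 640 in exon 3, with a score of -2.08. Opposite-strand hotspots were found on 5.27% of all genes and on 1 of the 10 here. Its GC share of 62.1% was the highest of the 7 hotspots on the 10 genes, where the others had 33.3 to 51.8%.
PSBO2, antisense, plus strand: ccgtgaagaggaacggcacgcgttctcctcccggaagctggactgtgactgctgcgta

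**Figure D2:**
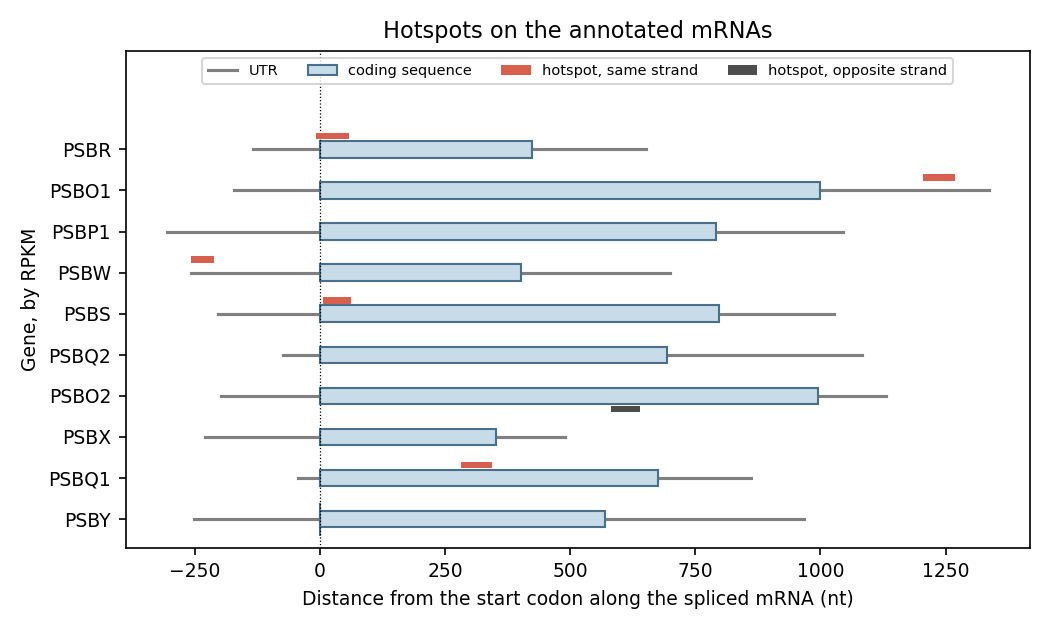
Hotspots on the annotated mRNAs of the 10 genes, ordered by RPKM, along the spliced mRNA in nt from the start codon, with boxes for coding sequence, lines for UTRs, red bars for hotspots on the strand of the gene and a dark bar for the one on the opposite strand. PSBR and PSBS carry theirs at the start of the coding sequence, and the intronic hotspot of PSBQ1 is not drawn.

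Hotspot bases per kb of mRNA were 84.2 in PSBR, 67.4 in PSBQ1, 49.1 in PSBW, 45.5 in PSBS and 43.1 in PSBO1. Their median of 49.1 nt per kb compares with 61.1 over all genes with a hotspot. Since each of the 5 mRNAs had a single exonic hotspot of similar length, the values largely follow the length of the mRNA.

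The hotspots were not uniformly in regions of low predicted pairing. With RNAplfold, which predicts local base pairing from sequence alone, the mean probability of being unpaired was 0.421 in the hotspot of PSBR and 0.479 in the rest of that mRNA. It was likewise lower in the hotspots of PSBO1 (0.420, against 0.487 in the rest) and PSBQ1 (0.448, against 0.466 in the rest). It was higher in the hotspots of PSBS (0.488, against 0.474 in the rest) and PSBW (0.686, against 0.478 in the rest). The gaps of PSBS and PSBQ1 were small beside the variation within their hotspots, and give no clear direction. Means over 25 nt ran from 0.282 to 0.664 inside the PSBS hotspot and from 0.332 to 0.565 inside the PSBQ1 hotspot. The PSBW stretch is the very 5′ end of the mRNA, where the prediction has no bases upstream to pair with. On exonic bases, the GC share was higher in the hotspot than elsewhere in 3 of the 5 mRNAs. The gap was widest in PSBS (51.8%, against 42.7% in the rest) and slight in PSBR (43.9%, against 43.7%). In PSBW the 47 exonic nt had 44.7%, against 41.1% in the rest, but the whole hotspot of 74 nt had 40.5%. The GC share was lower by the most in PSBO1 (35.4%, against 47.0% in the rest).

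**Figure D3:**
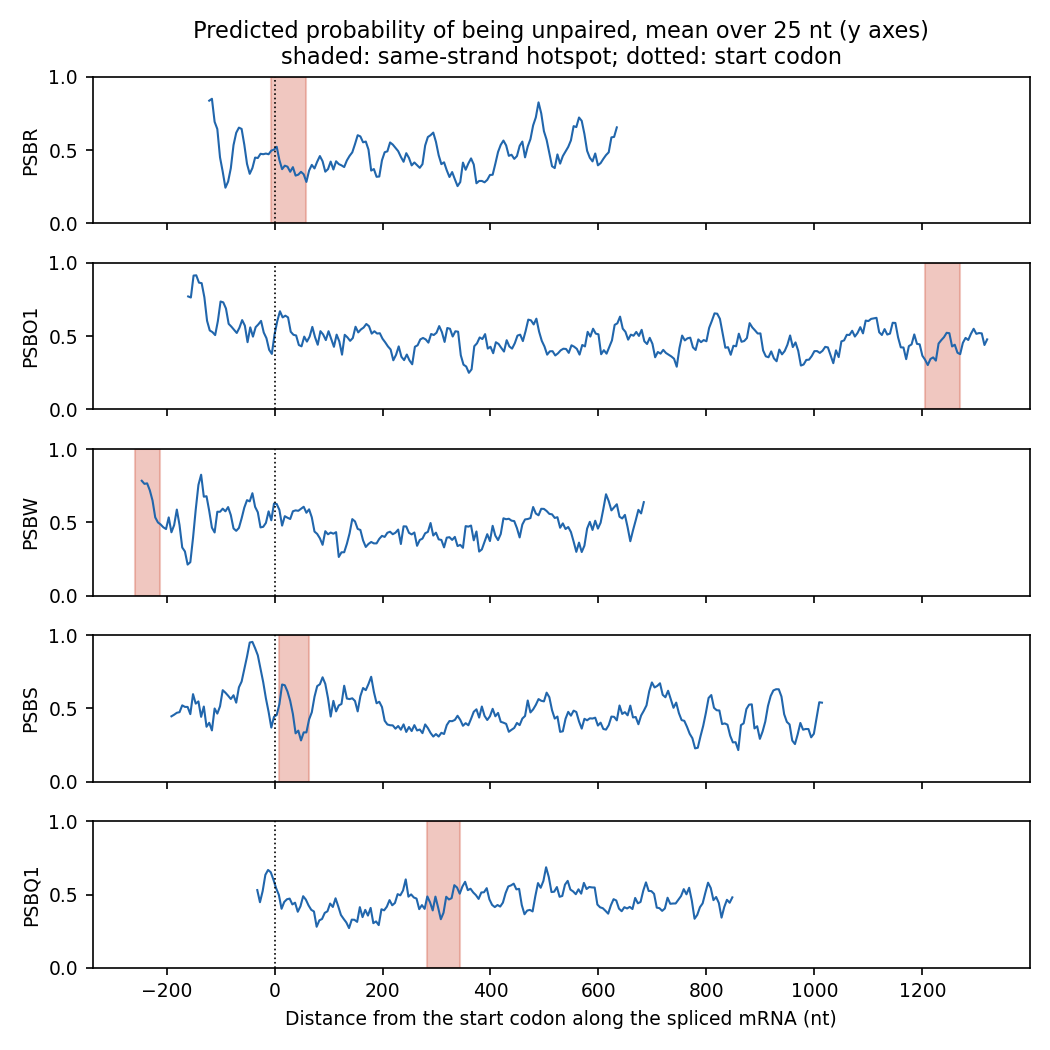
Predicted probability of being unpaired along the spliced mRNAs of the 5 genes with an exonic hotspot (mean over 25 nt, 0 to 1), against distance from the start codon in nt, with same-strand hotspots shaded. The shaded stretch of PSBW sits on a peak at the 5′ end, with a mean of 0.686, while that of PSBR has a mean of 0.421.

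In gene structure the 10 genes were compact beside all genes, but this was not particular to them. Median coding lengths were shorter in the photosystem I list (460.5 nt) and in the other photosystem II subunits and homologues (552 nt). They were longer in the antenna (802.5 nt) and in the assembly and repair genes (1314 nt). Coding sequences had 351 nt (PSBX) to 999 nt (PSBO1), with a median of 684 nt against 1062 nt over all genes. PSBX and PSBY had a single exon, PSBS had the most with 5, and 5′ UTRs ranged from 44 nt in PSBQ1 to 306 nt in PSBP1. The median GC share of the mRNAs was 44.0%, against 41.5% over all genes.

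Set beside other photosynthesis genes, the 10 subunits lay between the antenna and the photosystem I subunits. The list medians were 16.2 RPKM for the 10 genes, 34.2 for 14 antenna genes of photosystem II, 9.78 for 12 nuclear photosystem I genes, 2.26 for 7 other subunits and homologues and 0.884 for 27 assembly and repair genes. The antenna ran from 64.6 RPKM for CAB1 to 5.76 for LHCB4.3, and photosystem I from 28.9 RPKM for PSAL to 1.88 for PSAD2. The median of the mean weight per clone was 0.817 for the 10 genes and 0.629 for the antenna, and with unweighted clones the list medians were 18.98 RPKM and 59.0 RPKM.

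Genes that build and mend photosystem II had lower levels than most of its subunits. They ran from 3.99 RPKM for FTSH2, a thylakoid protease of the repair cycle, to 0.149 RPKM for PBCP, a phosphatase of the core proteins, and 8 of 27 were in the top decile. The lowest subunit, PSBY, at 4.04 RPKM (2.92 to 5.46), and FTSH2 (3.21 to 4.91) overlapped within counting error. On the annotated mRNA length, a setting chosen after seeing the data, their order turned, with 3.61 RPKM for PSBY and 3.92 RPKM for FTSH2, and the other 26 genes stayed below PSBY. Among the other subunits and homologues, PSBTN, a small nuclear-encoded subunit, was highest at 10.2 RPKM (7.67 to 13.3) and PSBP2 lowest. Hotspots were on 19 of 27 assembly and repair genes (70.4%), 10 of 12 photosystem I genes (83.3%), 6 of 14 antenna genes (42.9%) and 2 of 7 other subunits and homologues (28.6%). Each of these shares had an interval that overlapped the 18.7 to 81.3% of the 10 genes.

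**Figure D4:**
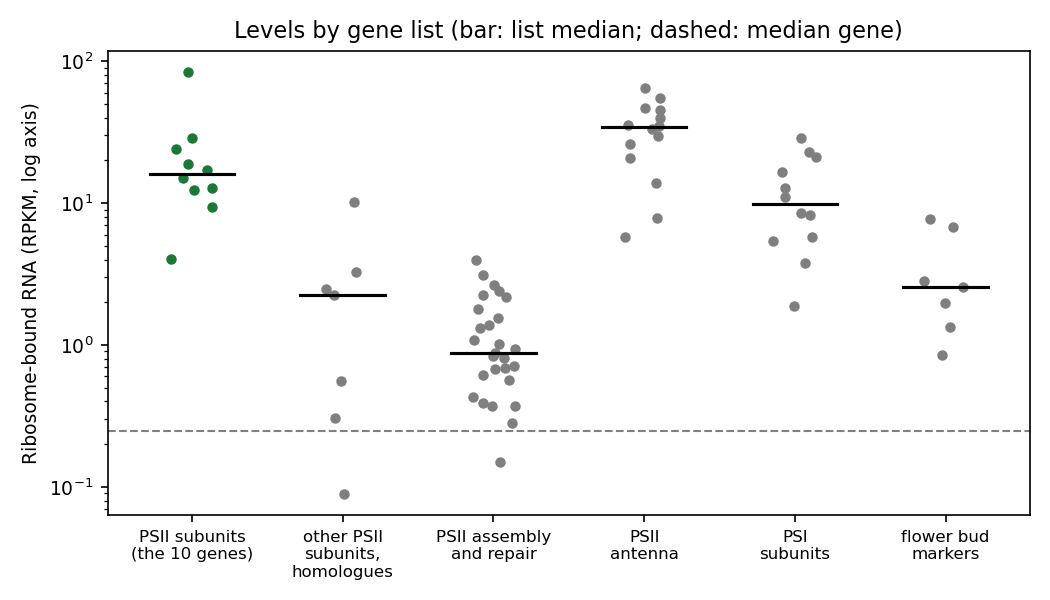
Ribosome-bound RNA (RPKM, log axis) of each gene in 6 lists, with a bar at the list median and a dashed line at the median gene of 0.246 RPKM. The 10 subunits have a median of 16.2 RPKM, below the antenna at 34.2 and above the assembly and repair genes at 0.884.

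**Figure D5:**
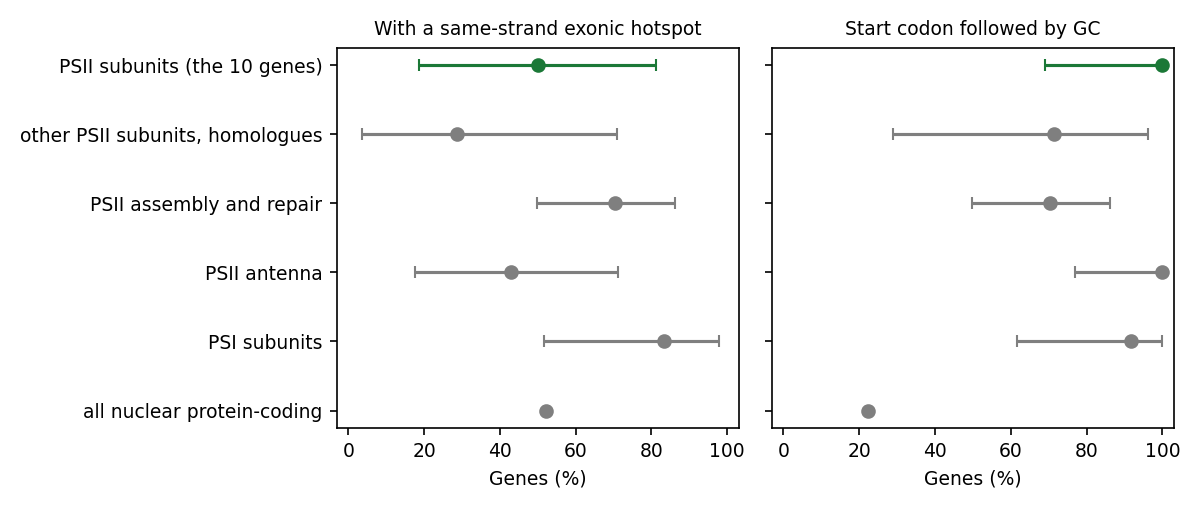
Share of genes in each list with a same-strand exonic hotspot (left) and with GC after the start codon (right), in percent with exact 95% binomial intervals. The 10 subunits stand at 50% and 100%, against 52.3% and 22.3% of all nuclear protein-coding genes.

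Markers of the labelled tissue were present. All 7 flower bud markers were above the median gene, from 7.71 RPKM for PI, a petal and stamen identity gene, to 0.852 RPKM for AG, a stamen and carpel identity gene. Of 5 root markers 1 was above it, IRT1 at 0.282 RPKM, and PHT1;1 was listed at 0. Of 5 seed storage markers none was, with SESA4 highest at 0.182 RPKM and OLEO1 listed at 0.

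The 3 genes outside all lists that lay nearest to the medians of the 10 genes were AT5G20290, a ribosomal protein S8e family gene, GLX1 and CA1, a carbonic anhydrase gene. Nearness was the distance on log2 RPKM and log2 of hotspot nt per kb plus 1, over 1 library of each assay. AT5G20290 had 16.4 RPKM and 5.37 hotspot nt per kb (distance 0.0640), GLX1 9.99 RPKM and 9.75 nt per kb (0.981) and CA1 7.60 RPKM and 9.10 nt per kb (1.24). The median point of the 10 genes on these log2 scales, at 16.1 RPKM and 5.64 nt per kb, lies between genes with and without a hotspot, so few genes are near it.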

How the data were processed

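The submitters' processing notes name TAIR9 as the genome build, Bowtie 0.12.7 and cutadapt 0.9.5. Hotspot calling and the weighting of clones were not given in the sources used here. A table deposited by the authors holds counts of clones per transcript, estimated counts (clones weighted by the authors, which never exceed the first), RPM (weighted clones scaled to the 9574408 mapped clones) and RPKM (RPM per kb of listed length), per the file headers. The deposited hotspot list carries an FDR of 5% in its name and a score of unstated formula. Hotspot starts were raised by 1 to 1-based positions.

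Gene models, names and sequence came from RefSeq TAIR10.1, and the gene symbols used here are PSBP-1 for PSBP1, PSBQA for PSBQ1, PSBQ-2 for PSBQ2 and NPQ4 for PSBS there. The files give no chromosome lengths. Hotspots ended within each TAIR10.1 chromosome, and 82.3% of nuclear hotspot bases lay in same-strand exons, against 81.6% after a shift of 10 nt, 64.2% after 100 nt and 45.2% after 1000 nt. The listed isoform with the longest coding sequence stood for each of 26632 nuclear protein-coding genes. Level intervals are exact Poisson on weighted clones, ratios exact conditional binomial on rounded weighted clones, and shares exact Clopper-Pearson, all 95% and for counting error only; clones have no molecular identifiers. Coding sequences were aligned with Biopython 1.88, and pairing was predicted with ViennaRNA 2.7.2 (RNAplfold, window 150 nt, longest pair 100 nt). Python 3.11.15, NumPy 2.4.6 and SciPy 1.17.1 were used. Overlaps and intervals were tested on simulated data.

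The 10 genes rested on 42.1 (PSBY) to 581 (PSBR) weighted clones each, and the median gene above 0 had 3.5. For the single-stranded library the depth is unknown. The members and gene lists were chosen with earlier results of these data known. Named were all 10 genes, the highest and lowest of each other list and the 3 nearest genes; for the root and seed lists, genes listed at 0 stand as lowest. Alternatives varied the clone weights, isoform, length, genes at 0, a minimum of 10 weighted clones and the overlap, strand and score of hotspots.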

Additional observations from a re-analysis of the deposited data

How the results depend on the processing

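With unweighted clones the median of the 10 genes was 18.98 RPKM in place of 16.2, and that of the lumen-side genes 23.4 RPKM in place of 19.6. The levels of 6 of the 10 genes moved beyond their own counting interval with unweighted clones, and those of 3 with the annotated mRNA length. With the isoform of highest RPKM 0 of 10 did. With hotspots of a score more negative than the median, 3 of the 10 genes had one in place of 5, PSBQ1, PSBR and PSBS, beside 35.3% of all genes. PSBW dropped out because its score of -2.62 equals the list median, a value that 18.4% of hotspots share. The other settings for the hotspot count gave 5 or 6 genes. All 10 genes stayed above the median gene with genes at 0 included, with at least 10 weighted clones and with unweighted clones. Among genes with at least 10 weighted clones, a setting chosen after seeing the data, 9 of 10 were in the top decile. The ratios of the gene copies kept their direction. They were 2.27 to 2.34 for PSBO1 over PSBO2 and 0.545 to 0.634 for PSBQ1 over PSBQ2. Those ranges cover the main setting, unweighted clones and weighted clones without length. They leave out the annotated mRNA length, where both gaps were narrower in the same direction. On that length PSBO1 had 23.9 RPKM and PSBO2 11.98 RPKM, while PSBQ1 had 9.45 RPKM and PSBQ2 13.59 RPKM. No paired analysis was possible because each assay had 1 library. Depth limits PSBY most, with 42.1 weighted clones. For the single-stranded library the depth is unknown, so a missing hotspot says nothing about that RNA.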
